A study of Mus musculus with 6 samples.

Results

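Mesothelin and the genes usually listed with it in mesothelial cells were followed in partially reprogrammed melanoma cells. The 7 genes were Msln, Wt1, Upk3b, Upk1b, Lrrn4, Muc1 and Muc16. All probe sets that the platform annotation gives to exactly 1 of these symbols were used, 11 of 45101 on the array (7 of 18193 annotated genes). Msln was chosen by its measured rise between the groups of these same arrays, and the other genes were placed around it, so their changes are a description of the data and not an independent test. The cells were of the 4434 line, derived from a Braf-mutant mouse melanoma, and their RNA was read on 6 arrays at day 20. In both groups the cells carried a doxycycline-inducible lentiviral vector for Oct4, Sox2, Klf4 and blasticidin resistance, together with a vector for the doxycycline-dependent transactivator. The 3 + dox arrays came from cells given doxycycline, which the methods describe as selected with blasticidin, and the 3 − dox arrays from cells kept without doxycycline. Doxycycline, selection and the 3 factors therefore cannot be told apart, and the 4434 line is a single tumour-derived line.

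Mesothelial cells form the smooth lining of the pleura, the peritoneum and the pericardium. Mesothelin is a GPI-anchored glycoprotein of their surface, cut by furin from a larger precursor, and it binds the mucin Muc16 (known in humans as CA125). It is low in most other normal tissues and high in human mesothelioma, ovarian and pancreatic carcinoma, where it serves as a target of antibodies. Wt1 is a zinc finger transcription factor of the developing kidney, gonad and mesothelium, Upk3b and Upk1b are uroplakins, which are best known from the bladder surface, and Lrrn4 is a leucine-rich repeat membrane protein found in mesothelium. Muc1 is a transmembrane mucin of many epithelia.

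Values are log2 RMA levels, and 1 unit is a doubling. Column medians lay between 5.33 and 5.37, and lower quartiles between 3.84 and 3.90. The first principal component, with 63.2% of the variance, separated the groups. The + dox array closest to the other group was number 1 (10.5, against 41.9 and 54.4 for + dox 2 and 3, and −30.7 to −39.6 for the − dox arrays), and − dox 1 stood apart on the next component (20.0%). Whether replicate arrays were made from independent cultures is stated nowhere in the sources, and p-values therefore describe the spread of these 6 samples alone, which may be technical.

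Msln was low in every − dox array and high in every + dox array. Its probe set (1460238_at) stood at 11.84, 11.91 and 11.87 in + dox arrays 1, 2 and 3, and at 4.52, 4.61 and 4.27 in − dox arrays 1, 2 and 3. The groups were 7.23 apart at their nearest values, and array + dox 1, which lay nearest to the − dox cells over all genes, held as much Msln as the other + dox arrays. The change was 7.41 (SE 0.11, 95% confidence interval 7.13 to 7.68), a 169.7-fold rise (interval 140.3 to 205.2). It ranked number 3 among all genes by the size of the rise. Of the 13 genes that rose by more than 5, Msln had the smallest SD among + dox arrays (0.04, against a median SD of 0.14 over all genes). The − dox level lay under the column medians but above the lower quartile in each array. Low levels are compressed on this scale, so the fold is approximate. In bulk RNA a change in the share of cells that express a gene and a change in the RNA per cell cannot be told apart.

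**Figure D1:**
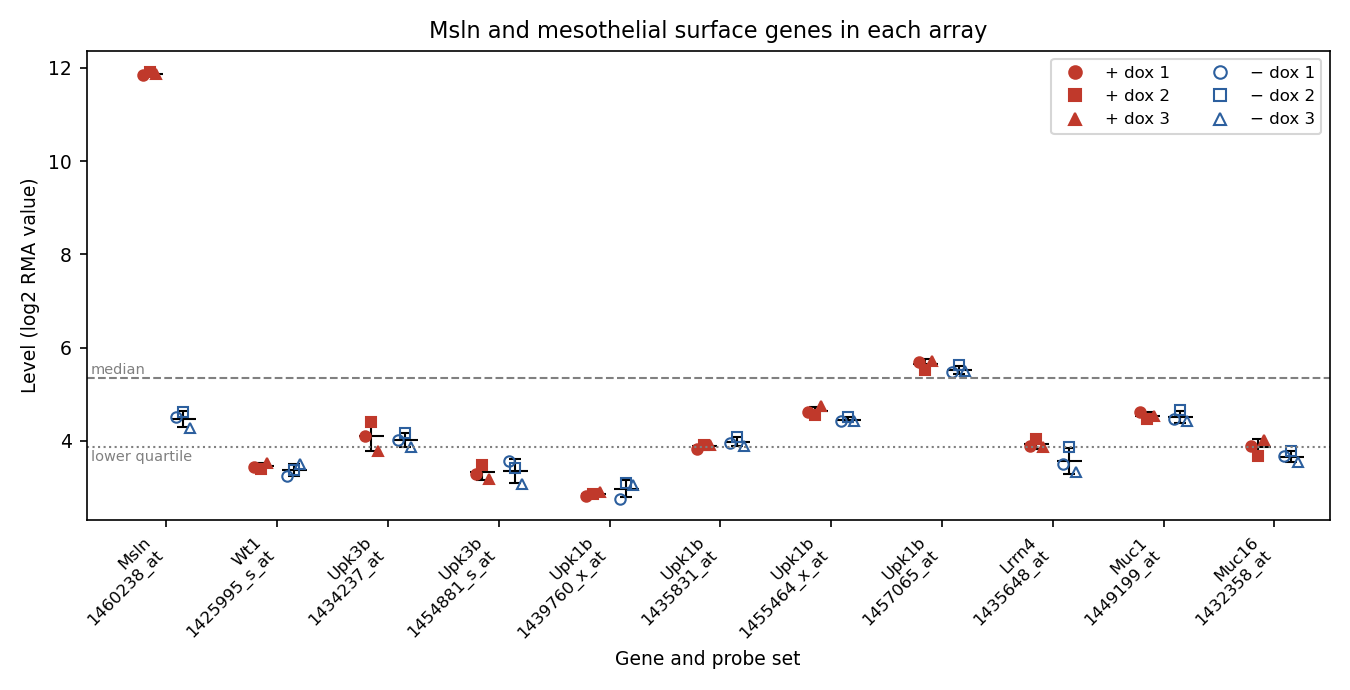
Log2 RMA level (vertical axis) of the 11 probe sets (horizontal axis), by array, with filled red symbols for + dox, open blue symbols for − dox, black bars for the mean ± SD of 3 arrays and grey lines for the mean over arrays of the column median and lower quartile. Msln spans 11.84 to 11.91 with dox and 4.27 to 4.61 without, and the 10 other probe sets lie between 2.76 and 5.72 in all 6 arrays.

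The other 6 genes showed no rise of this kind. Their 10 probe sets had changes between −0.11 and 0.36, with a median of 0.08, and each 95% interval included 0. The upper ends of these intervals reached 0.73 at most (1.66-fold), and the lower ends −0.40 (0.758-fold). In the fit over all genes 1 of the 7 genes was called higher and 0 lower, where 3.07% and 1.80% of all genes were called. Of the 6 genes beside Msln, 0 had an unadjusted p under 0.05 by limma, where 21.7% of all genes had one. In the fit over all probe sets 1 of the 11 was called higher and 0 lower (1.64% and 0.884% of all probe sets, 2.53% together). Since the group was built around Msln on this contrast, nothing is read from these counts. The levels were low throughout, with all 6 arrays under the lower quartile of their column in 3 of the 10 probe sets and some arrays under it in 4. No detection calls were used here, so a low value cannot be told from background, and a small change at such a level would not show.

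Wt1, the lineage regulator of the group, had 1 probe set. It stood at 3.45, 3.40 and 3.52 in + dox and 3.25, 3.37 and 3.51 in − dox arrays. The groups overlapped and the change was 0.08 (interval −0.17 to 0.33). All 6 values were under the lower quartile.

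Upk3b was read by a pair of probe sets. In 1434237_at the + dox arrays stood at 4.10, 4.40 and 3.79 and the − dox arrays at 4.02, 4.18 and 3.86, a change of 0.08 (interval −0.34 to 0.50). In 1454881_s_at the values were 3.29, 3.49 and 3.19 in + dox and 3.56, 3.42 and 3.07 in − dox arrays, a change of −0.03 (interval −0.40 to 0.35). The probe sets differed in sign, and in both the groups overlapped, with + dox 3 the lowest of the + dox arrays and − dox 3 the lowest of the − dox arrays.

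Upk1b, which encodes a uroplakin of the tetraspanin family, had 4 probe sets, and they also differed in sign. In 1457065_at, the probe set with the highest mean, the + dox arrays stood at 5.70, 5.53 and 5.72 and the − dox arrays at 5.47, 5.62 and 5.49 (0.12, interval −0.12 to 0.36). In 1455464_x_at they stood at 4.61, 4.56 and 4.74 against 4.42, 4.51 and 4.43 (0.18, interval −0.04 to 0.41). These groups did not overlap, by a gap of 0.05, as in 12% of all probe sets. Beside Msln this was the only such probe set of the 11, and 0 of them lay wholly lower in + dox (11.4% of all probe sets). In 1435831_at, designed on the same transcript record, the values were 3.83, 3.91 and 3.92 in + dox and 3.95, 4.09 and 3.90 in − dox arrays (−0.09, interval −0.32 to 0.13). The 1439760_x_at values were 2.81, 2.87 and 2.91 against 2.76, 3.09 and 3.06 (−0.11, interval −0.39 to 0.17). By Affymetrix naming, probes of an _x_at set can match other transcripts and those of an _s_at set can match several transcripts, so these probe sets are less specific.

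Lrrn4 had the largest change after Msln. It stood at 3.89, 4.04 and 3.86 in + dox arrays and at 3.51, 3.87 and 3.33 in − dox arrays. The groups met at their edges, where − dox 2 (3.87) lay above + dox 3 (3.86), and − dox 1 and 3 lay below all + dox arrays. The change was 0.36 (SE 0.15, interval −0.01 to 0.73), and the upper end of the interval is a 1.66-fold rise on this compressed scale.

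The mucin genes had small changes. Muc1 stood at 4.62, 4.47 and 4.54 in + dox and 4.47, 4.67 and 4.43 in − dox arrays, and its change was 0.02 (interval −0.23 to 0.27). Muc16, the binding partner of mesothelin, stood at 3.90, 3.67 and 4.03 in + dox and 3.67, 3.78 and 3.54 in − dox arrays (0.20, interval −0.10 to 0.51). The highest − dox array of Muc16 lay above + dox 2, and the groups overlapped for both genes.

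**Figure D2:**
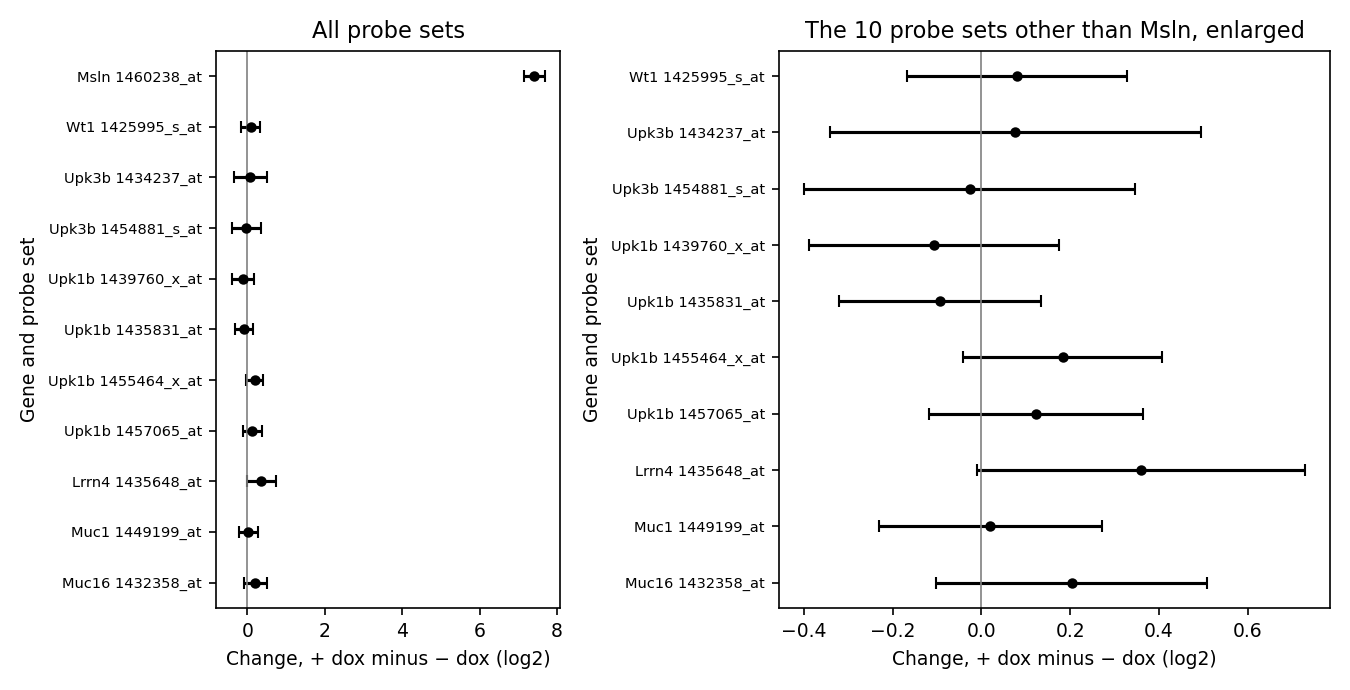
Change in log2 RMA level, + dox minus − dox (horizontal axis), of each probe set (vertical axis), with points for the fitted change and bars for its 95% confidence interval, and with the probe sets other than Msln enlarged at the right. Msln lies at 7.41 and the 10 other probe sets lie between −0.11 and 0.36, with intervals that include 0.

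Promoters of 4 of the 7 genes (Upk3b, Lrrn4, Muc1 and Muc16) were matched in the RefSeq promoter table of build GRCm38.p6, from 250 bases before to 50 after the start. Msln, Wt1 and Upk1b had no entry. The promoters of Upk3b and Muc1 are shown as those of a uroplakin and a mucin gene that did not rise with Msln, and the capitals mark letters that Klf, Tead or TATA-binding factors are known to bind. The Upk3b promoter (chr5:136038246-136038545, plus strand) and the Muc1 promoter (chr3:89228806-89229105, plus strand) read as follows.
Upk3b: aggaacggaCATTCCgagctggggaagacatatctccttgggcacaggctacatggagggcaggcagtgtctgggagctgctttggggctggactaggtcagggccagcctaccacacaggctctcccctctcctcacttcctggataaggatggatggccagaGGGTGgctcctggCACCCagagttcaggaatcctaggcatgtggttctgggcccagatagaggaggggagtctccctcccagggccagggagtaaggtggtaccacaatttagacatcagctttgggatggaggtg
Muc1: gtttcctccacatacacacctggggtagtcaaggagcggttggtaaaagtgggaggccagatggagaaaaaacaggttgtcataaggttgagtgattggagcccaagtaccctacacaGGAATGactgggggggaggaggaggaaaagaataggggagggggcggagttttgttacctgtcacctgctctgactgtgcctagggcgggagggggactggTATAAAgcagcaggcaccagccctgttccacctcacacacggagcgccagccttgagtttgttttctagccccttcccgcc

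Motifs were searched on both strands of each window. The letters CATTCC, known from Tead factors, stood once in each of the Upk3b, Lrrn4 and Muc1 promoters, 241, 196 and 132 bases before the start, and in 14.7% of all 32851 promoters in the table. The Klf letters CACCC stood in Upk3b on both strands (86 and 73 bases before the start), in Lrrn4 and in Muc16, and in 57.5% of all promoters. The TATA box, as TATAAA, stood 31 bases before the start of Muc1 and in 13.6% of all promoters. In 0 of the 4 windows were the Sox letters CATTGT (12.6% of all promoters), the letters ATGCAAA from the octamer of POU factors (4.63%) or the letters GCGTGGG of Egr1 and Wt1 (5.04%). No motif overlapped another in these windows. These matches describe the letters only.

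The genes with the profile nearest to that of Msln came from other families. For each gene the 6 arrays were taken as differences from its − dox mean, and the root mean square difference from the Msln profile was computed over the 6 arrays for 18192 genes. It was 0.31 for Nppb, which encodes a natriuretic peptide of the heart, 0.35 for Urah, an enzyme of urate breakdown, 0.45 for Aldh3a1, an aldehyde dehydrogenase, 0.60 for Plet1, a surface protein of placenta and epithelial progenitors, and 0.96 for Ifi209, an interferon-inducible gene. These were the only 5 genes under 1, and 14 were under 2, where the median over all genes was 5.23. The other 6 mesothelial genes lay between 4.98 (Lrrn4) and 5.22 (Muc1). A gene that changes little lies near the median by this measure, so these distances only restate the small changes given above. Nearness to Msln likewise mostly reflects a rise of similar size. Within the + dox group the nearest genes differed. Nppb stood at 13.40, 13.55 and 13.52, with an SD of 0.08 against 0.04 for Msln, while Aldh3a1 stood at 10.25 in + dox 1 and 11.49 and 11.68 in + dox 2 and 3, and Urah at 12.45 against 13.19 and 13.36. Plet1 stood at 10.33, 10.82 and 11.69, and Ifi209 at 10.70, 11.0 and 11.09, so + dox 1 was the lowest + dox array in all 6 genes.

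**Figure D3:**
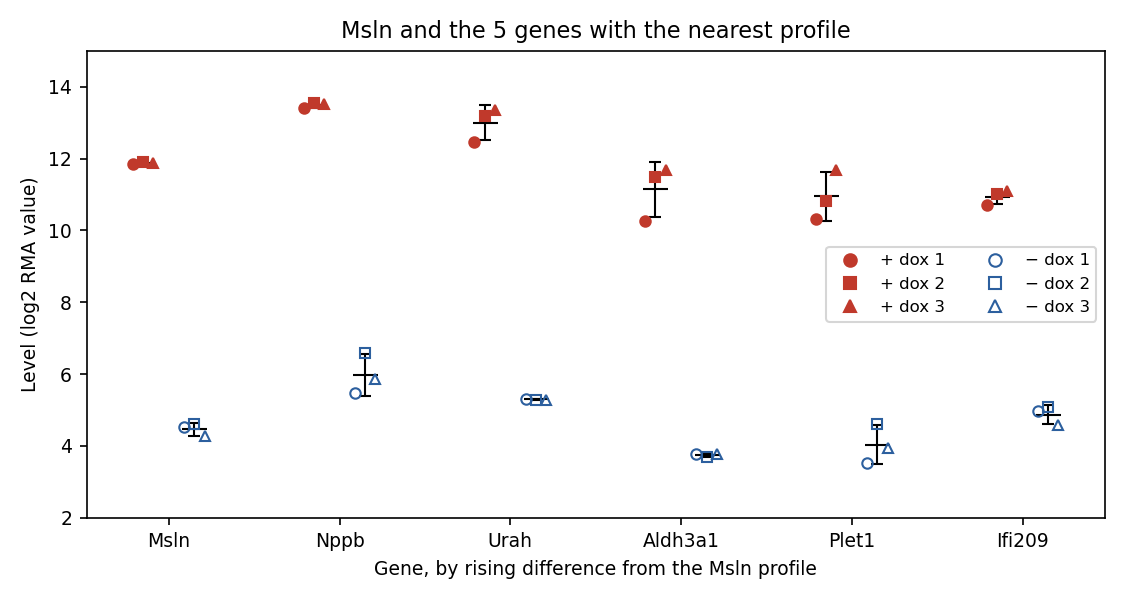
Log2 RMA level (vertical axis) of Msln and the 5 genes with the nearest profile (horizontal axis, nearest to the left), with filled red symbols for + dox arrays, open blue symbols for − dox arrays and black bars for the mean ± SD of 3 arrays. The + dox arrays of Msln lie between 11.84 and 11.91, while those of Aldh3a1 run from 10.25 to 11.68.

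The genes beside Msln on chromosome 17 showed no rise of this size. Of the 8 protein-coding genes on each side in the RefSeq order, 14 were measured, with a median change of −0.03 and a range from −1.98 to 0.51. This neighbourhood was chosen after the rise of Msln was seen. Ciao3, an iron-sulfur assembly gene and the next gene measured on one side, stood at 8.87, 8.76 and 8.89 in + dox and 8.34, 8.31 and 8.40 in − dox arrays. It rose by 0.49 (SE 0.09, limma adjusted p = 0.0350). This call was lost when array 2 or 3 of either group was left out (highest adjusted p 0.137). It was the 1 neighbour called, beside 4.87% of all genes called in either direction. Of the 14 measured, 4 had an unadjusted p under 0.05, beside 21.7% of all genes. On the other side Mslnl, the mesothelin-like gene, was not analysed here, and Rpusd1, a pseudouridine synthase gene, had 0.35 (adjusted p = 0.180 by limma). The lowest change, that of the transcription factor gene Sox8, was −1.98 with a wide spread in both groups (5.66, 4.41 and 3.86 against 5.61, 6.34 and 7.91, limma adjusted p = 0.154).

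**Figure D4:**
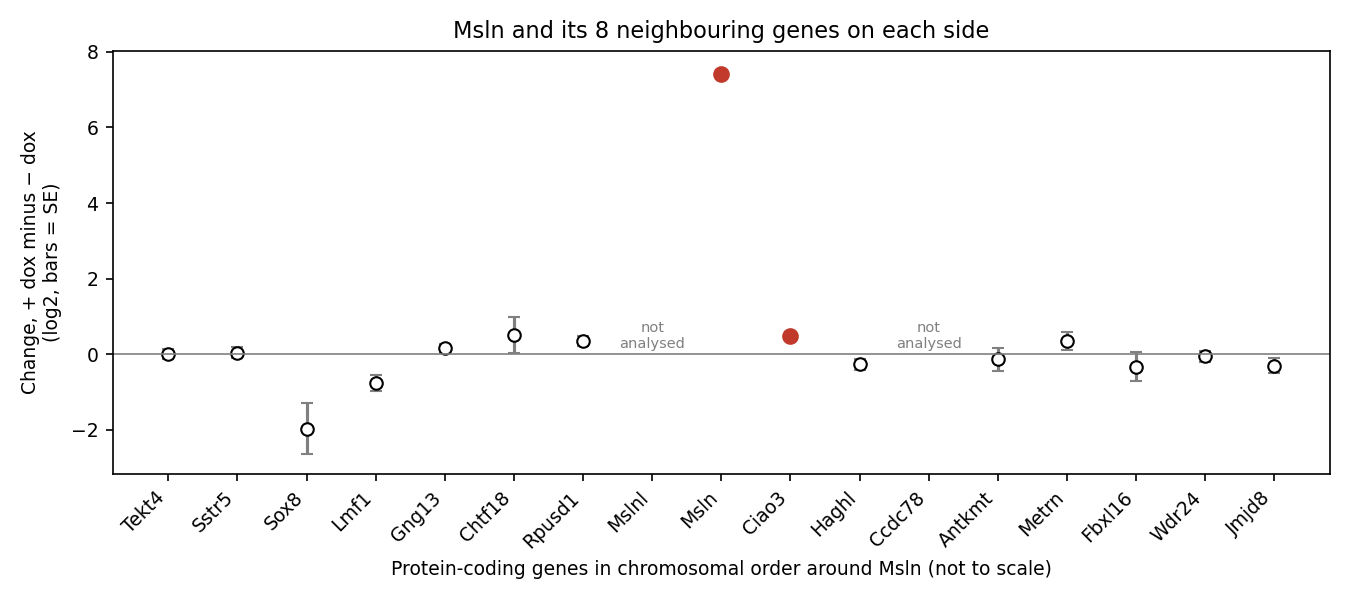
Change in log2 RMA level, + dox minus − dox (vertical axis), of Msln and the protein-coding genes around it in chromosomal order (horizontal axis, not to scale), with bars for the SE of the fit and filled red points for called genes. Msln lies at 7.41 and the 14 measured neighbours lie between −1.98 and 0.51.

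The share of other mesothelial genes called was near that of all genes. In a list of 24 genes of mesothelium and its precursors, all measured, 1 rose and 0 fell (4.17%, beside 4.87% of all genes). Of the 24, 5 had an unadjusted p under 0.05, beside 21.7% of all genes. The median change was 0.08, where that of all genes was 0.01. The gene called was Gpm6a, a membrane glycoprotein gene of neurons and of mesothelium. Gpm6a stood at 6.59, 6.37 and 7.24 in + dox and 5.64, 4.99 and 4.66 in − dox arrays, without overlap, and rose by 1.64 (SE 0.31, limma adjusted p = 0.0404). Its other probe set had 1.08. Krt19, a simple epithelial keratin, had 1.08 (5.13, 4.71 and 5.82 against 4.47, 4.05 and 3.90, limma adjusted p = 0.0951). Other genes did not pass the test either. Among them were the transcription factor genes Gata6, at 1.03 with groups that overlapped (other probe sets 0.03 to 0.80), and Tbx18, at 0.85 (other probe set 1.09). Sema3d, a secreted guidance factor gene, had −1.20 (other probe set −0.14). Efemp1, a matrix protein gene, had 0.31, with all its values under the lower quartiles and groups that did not overlap. In the whole list 5 genes lay wholly higher in + dox and 1 wholly lower. Over all probe sets, which are another unit, the shares were 12% and 11.4%. The share over all genes is not given here, so nothing is read from these list counts. Of well-known genes of the lining, Calb2, which encodes calretinin, had 0.17, the transcription factor gene Bnc1 −0.11, Krt8 0.12, Krt18 0.11, Krt7 −0.02 and Pdpn, the gene of podoplanin, −0.36. The call of Gpm6a was lost when array 2 or 3 of either group was left out. In those settings 118 to 168 genes were called over all. Without + dox 1 Gata6 also rose (1650 of all genes called), and without − dox 1 Tbx18 rose and Sema3d fell (1140 called). Without both arrays numbered 1 there were 4 rises (Gpm6a, Gata6, Tbx18 and Krt19) and 2 falls (Sema3d and Pdpn). In that setting 3649 of all 18193 genes were called, so nothing is read from this count. Among 18 measured partners and reported targets of Wt1, 0 rose and 1 fell (5 with an unadjusted p under 0.05, median 0.14). Spry1, a feedback inhibitor of receptor tyrosine kinase signalling, stood at 7.54, 6.68 and 6.48 against 8.88, 8.85 and 9.22 (−2.08, SE 0.28, limma adjusted p = 0.0160), and its call was lost on leaving out any of the same 4 arrays. Wtip, a gene of a Wt1-interacting protein, had −0.52 (9.33, 8.81 and 8.88 against 9.57, 9.53 and 9.48, limma adjusted p = 0.110). Without + dox 1 Wtip was also called lower, and without − dox 1 Egr1 was called higher. Without both arrays numbered 1 there were 3 rises (Egr1, Basp1 and Scel) and 2 falls (Spry1 and Wtip), beside the 3649 genes called in that setting.

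Relatives and partners of the uroplakins, mucins and mesothelin are set beside the 4.87% of all genes called in either direction and the 21.7% with an unadjusted p under 0.05. Among 14 uroplakin and urothelial genes 2 rose and 0 fell (14.3%, 5 with an unadjusted p under 0.05, median 0.13), and both were keratin genes. Krt20, a keratin of bladder umbrella cells and gut, stood at 4.95, 5.62 and 5.24 against 4.20, 4.11 and 4.06 and rose by 1.15 (SE 0.17, limma adjusted p = 0.0225). Krt13, a keratin of stratified lining epithelia, stood at 8.44, 5.76 and 6.28 against 3.33, 3.49 and 3.36 and rose by 3.43 (SE 0.65, limma adjusted p = 0.0386), and with the mean of its 3 probe sets the change was 1.74 (adjusted p = 0.0521). The remaining uroplakin genes did not pass, with Upk1a at 0.24, Upk3a at 0.20, Upk3bl at 0.02 and Upk2 at −0.01. Mucin genes gave 0 calls by limma among 11 measured of 13 listed (1 with an unadjusted p under 0.05, median −0.01). Podxl, a sialomucin of podocytes and mesothelium, had −0.70 (9.58, 8.55 and 9.48 against 10.05, 9.93 and 9.73, limma adjusted p = 0.210) and Muc15 had 0.15 (3.40, 3.54 and 3.30 against 3.16, 3.34 and 3.30). Genes that process, glycosylate or bind mesothelin and the membrane mucins gave 2 rises and 0 falls among 29 (6.90%, 6 with an unadjusted p under 0.05, median 0.05). Lgals3, which encodes the sugar-binding protein galectin-3, stood at 12.88, 12.89 and 13.28 against 11.77, 11.42 and 11.21 and rose by 1.55 (SE 0.18, limma adjusted p = 0.0115). Gcnt1, a glycosyltransferase that branches mucin-type O-glycans, stood at 9.07, 9.71 and 9.67 against 7.88, 8.27 and 8.16 and rose by 1.38 (SE 0.20, limma adjusted p = 0.0198). Furin, the protease that cuts the mesothelin precursor, had 0.18 (9.41, 9.36 and 9.36 against 9.50, 9.06 and 9.03) and did not pass, nor did the genes of the GPI transamidase, which attaches such proteins to their anchor. Of 6 measured relatives of mesothelin and Lrrn4, 0 rose and 2 fell (33.3%, 2 with an unadjusted p under 0.05, median −0.17). Lrrn1 stood at 5.92, 4.39 and 3.98 against 7.67, 7.54 and 8.28 (−3.07, SE 0.50, limma adjusted p = 0.0268), but its 2 other probe sets had 0.17 and 0.21, and Lrrn3 stood at 5.98, 5.38 and 5.41 against 6.46, 7.48 and 7.03 (−1.40, SE 0.29, limma adjusted p = 0.0476). Strc and Otoa, genes of inner ear proteins related to mesothelin, had −0.06 and −0.02. Without + dox 2, − dox 2 or − dox 3, 0 genes of these 4 lists were called, without + dox 3 only Lgals3 was called, and without − dox 1 the call of Krt13 was lost while Gata3 was called. Without + dox 1 Gata3 was also called higher and Mmp14 lower. Without both arrays numbered 1 Gata3, Adam9 and Src also rose and Mmp14 also fell. Of all 18193 genes 168, 121, 118, 151, 1140, 1650 and 3649 were called in these settings, in the order given.

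**Figure D5:**
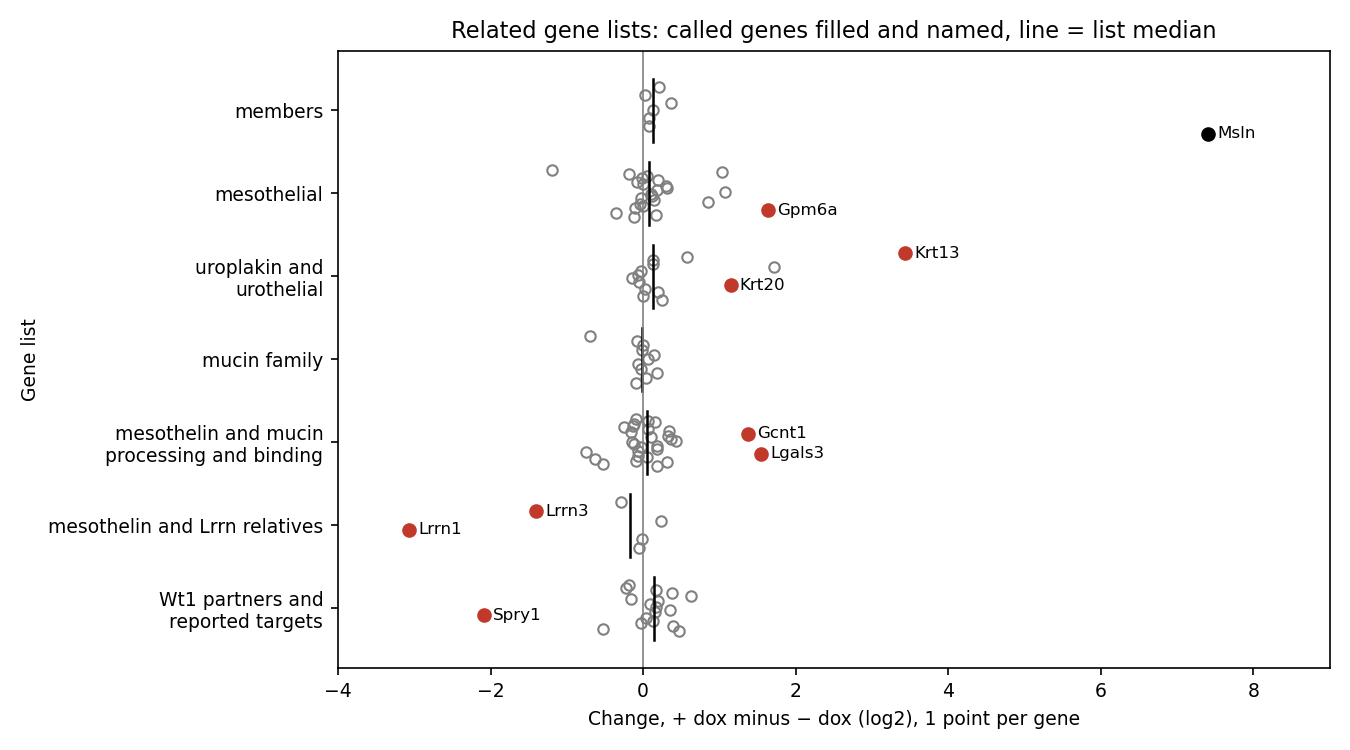
Change in log2 RMA level, + dox minus − dox (horizontal axis), with 1 point per gene, for the 7 genes and the 6 related lists (vertical axis), where filled points are called genes and black lines are list medians. Msln lies at 7.41, and the called genes of the other lists lie between −3.07 (Lrrn1) and 3.43 (Krt13).

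Markers of pigment cells and of other cells that a culture could hold were measured beside Msln. Over all genes 4.87% were called and 21.7% had an unadjusted p under 0.05. Of 7 melanocyte genes 0 were called by limma (0 with an unadjusted p under 0.05), and a count over so few genes tells little. Tyr, Tyrp1, Dct and Mlana, for pigment enzymes and a melanosome protein, were between 3.31 and 4.61 in all arrays, Pmel between 5.25 and 5.43 and Sox10 between 6.12 and 6.46. Mitf, the gene of a melanocyte transcription factor, stood at 6.41, 6.83 and 6.17 against 8.15, 6.87 and 6.67 (−0.76, limma adjusted p = 0.343). The mean level over the 7 genes ranged from 4.67 to 4.85 with dox and from 4.72 to 4.92 without. Of 6 keratinocyte genes (mean level 5.16 to 5.31 against 4.46 to 4.65) 1 was called, the basal keratin gene Krt14, which rose from 4.67, 4.47 and 4.50 to 8.21, 7.68 and 8.77 (3.67, SE 0.26, limma adjusted p = 0.00173). Its 2 other probe sets had −0.11 and 2.46. Krt10, a keratin of upper epidermal layers, stood at 6.10, 6.48 and 6.48 against 6.43, 5.46 and 5.53 (0.55). It was called higher without − dox 1, a setting with 1140 genes called in all. Krt5, Krt1, Trp63 and Ivl stood between 3.55 and 4.86 in all arrays.

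The 5 endothelial (4.62 to 4.97 against 4.13 to 4.33), 7 fibroblast (5.23 to 5.44 against 5.25 to 5.51), 5 immune (5.05 to 5.15 against 4.67 to 5.09) and 4 smooth muscle genes (5.81 to 6.37 against 5.62 to 6.09) had 0 calls by limma, and 1, 2, 0 and 1 of them had an unadjusted p under 0.05. Beside the 4.87% of all genes called and the 21.7% with such a p, nothing is read from counts over so few genes. These counts depended on single arrays. Without + dox 1 the endothelial receptor gene Tek (1.61 with all arrays) and the matrix gene Dcn (0.85) were called higher. The collagen gene Col3a1 (−1.35) was then called lower. Tek stood at 7.01, 4.58 and 4.49 in + dox and 3.87, 3.80 and 3.58 in − dox arrays. Its change was 0.845 without both arrays numbered 1, so + dox 1 raised both this change and the endothelial mean. Without − dox 1 Cd68 (1.24), a macrophage lysosome gene, was called higher, and without + dox 2 Tagln (0.73), a smooth muscle gene. Without both arrays numbered 1 Krt10, Tek, Kdr, Dcn and Cd68 were called higher and Col3a1 lower. Over all genes 1650, 1140, 168 and 3649 were called in these settings, in the order given. The part of these markers in the rise of Msln was not tested.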

How the data were processed

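RNA levels of 6 samples, which the labels place in groups of 3, were read on Affymetrix mouse arrays. The deposited values are log2 expression levels: scanner files were processed by the authors in Chipster with RMA, which corrects background, sets the arrays to the same quantiles and sums up the probes of a set. Software version and chip definition are not given in the sources used here, so the scale was read from the values (2.08 to 14.44) and from the use of RMA, and centring was not found. Quantile normalisation removes shifts common to all genes, and precision is limited by how few arrays there were.

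Genes were named from the platform annotation, checked against the RefSeq table of GRCm38.p6 through Entrez identifiers (0 symbols changed). Of 45101 probe sets 34945 had 1 gene, 932 had several and 9211 were not listed, and the 64 controls were left out. Each probe set of the 7 genes was shown. Elsewhere the probe set of highest mean stood for its gene (18193 genes). Tests were two-sided, from limma 3.58.1 under R 4.3.3 (lmFit, eBayes), and p-values were adjusted by Benjamini-Hochberg over all 18193 genes, with calls made at 0.05. A second fit over the 45037 probe sets that were no controls gave the changes, SE and intervals of the 7 genes. The members and lists were chosen with earlier results of these data known. Genes named per related list were up to 4 called in each direction, or, with under 2 called, the 2 genes of smallest p, and the cell type markers could all be named. Genes given beside them, namely Calb2, Bnc1, Krt8, Krt18, Krt7, Pdpn, Gata6, Tbx18, Sema3d, Efemp1, Furin, Strc, Otoa and the uroplakins, were chosen for their role or change after their values were seen, as were the chromosomal neighbours and the promoter motifs. The fit was tested on simulated data first. It called 11.2% of simulated log2 changes of 0.5, 62% of those of 1, 92% of those of 2 and 99.2% of those of 5. Most changes of 0.5 were therefore missed. Alternatives were a replicate block, other ways to choose a value per gene, filters at 20% and 40%, other variance and scaling settings, arrays left out, all probe sets, an adjusted threshold of 0.01 and limma's treat test against 2-fold. Same-numbered arrays did not deviate together (correlations of −0.12, −0.22 and 0.08), so numbers were not taken as pairs.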

Additional observations from a re-analysis of the deposited data

How the results depend on the processing

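The change of Msln ranged from 7.31 to 7.48 over all settings tried, and from 7.31 to 7.48 with 1 array left out. Msln was the 1 gene of the 7 called under each of the 18 alternatives. The changes of the other 10 probe sets lay between −0.21 and 0.51 over the settings. They moved by less than the SD between arrays in 100 of 100 cases. Most of these cases could not have come out otherwise. Leaving out 1 array moves a group mean by less than that group's SD, and the replicate block leaves each change as it was. Nothing is therefore read from this count.

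Counts depended on single arrays and on the threshold. Over all genes there were 886 calls, and 118 to 1650 with 1 array left out (for the − dox arrays 1, 2 and 3 in turn 1140, 121 and 118, and for the + dox arrays 1650, 168 and 151). Without both arrays numbered 1 there were 3649. In the 6 related lists together 8 of 102 measured genes were called, 0 to 12 with 1 array left out and 21 without both arrays numbered 1. With the replicate block 303 genes were called in all and 1 in the lists. The block is given as a check only, since the labels do not say whether same-numbered arrays share more than a number. An adjusted threshold of 0.01 gave 128 and 0 calls, and the treat test 51 and 0. The cause of these shifts was not tested. Of the 8 listed genes called, 0 passed under every omission of a single array. Low levels limit what can be seen of Wt1, Muc16, Lrrn4 and Upk3b.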
